A study of Arabidopsis thaliana with 15 samples.

Results

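The 40 genes described here encode the enzymes and the regulators of chlorophyll (Chl) and carotenoid synthesis in Arabidopsis. They were taken by name, as a fixed list of loci with no rule on their signals, although earlier results of these data were known. Probes were matched to loci through the accession of each spot, and the brightest probe of a locus stood for its gene, which gave a probe for all 40 of the 25410 loci matched. In role, 4 genes make 5-aminolevulinic acid (ALA), 8 carry the tetrapyrrole steps that Chl and heme share, 15 belong to the magnesium branch that leads to Chl, and 13 make carotenoids. One-color Agilent arrays were available in 5 groups of 3: ANAC046 overexpressors driven by the CaMV 35S promoter (35S:ANAC046:NOS, called OX) and Col-0 wild type (WT) in leaves of soil-grown plants at 50 days after sowing (DAS), and plants with the chimeric repressor 35S:ANAC046-SRDX:NOS (called SRDX), the transposon insertion mutant anac046 (called KO) and WT after 5 days in the dark (DAD). All plants had the Col-0 background, and the dark-treated plants are labelled as seedlings under foil on MS agar, whereas the Methods speak of leaves. The 3 arrays of OX, and likewise those of SRDX, are 3 independent transgenic lines, here numbered 1 to 3, whereas KO is a single insertion line. Values are log2 signals relative to the median of the array after quantile normalization, so a value of 0 is the array median and a difference of 1 is a 2-fold change. Signals of different probes are not compared with each other, since each probe has its own brightness.

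Chl is built from glutamate. Glutamyl-tRNA reductase (HEMA) and glutamate-1-semialdehyde aminomutase (GSA) make ALA, and a common set of enzymes turns ALA into protoporphyrin IX. Ferrochelatase leads from there to heme, and magnesium chelatase (subunits CHLH, CHLI and CHLD, with the activator GUN4) leads to Chl. CHLM then adds a methyl group, CRD1 is part of the cyclase that closes the fifth ring, DVR reduces the vinyl side chain, the light-dependent oxidoreductases PORA, PORB and PORC make chlorophyllide, CAO converts the *a* to the *b* form, and CHLG attaches the tail that CHLP supplies. FLU represses glutamyl-tRNA reductase and so holds back ALA synthesis in the dark. In the carotenoid pathway phytoene synthase (PSY) is the entry enzyme, PDS3, Z-ISO, ZDS and CRTISO desaturate and isomerize phytoene to lycopene, the cyclases LCYE and LCYB open the branches to lutein and to beta-carotene, hydroxylases (BCH1, BCH2, LUT1 and CYP97A3) follow, and ZEP and VDE interconvert zeaxanthin and violaxanthin.

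All 40 genes passed the filter on dim probes and were tested in each comparison, and 39 of them were well above background on all 15 arrays. The exception was *DVR* (AT5G18660), which missed this mark on a single KO array and met it on the other 14. *ANAC046* (AT3G04060) itself followed the labels. Its log2 level was 2.64 in OX line 1, 8.95 in line 2 and 9.01 in line 3, against 0.42 to 0.77 on the WT arrays at 50 DAS. At 5 DAD it was 6.29 to 6.42 on the SRDX arrays, not well above background on any KO array, and 5.11 to 5.35 on the WT arrays. The arrays lay on 5 slides. KO arrays and SRDX line 3 shared a slide, SRDX lines 1 and 2 had another, and each WT group and the OX group had a slide of its own. Genotype and slide thus cannot be told apart wherever WT is the comparison. The share of spots well above background was 77.5%, 77.6% and 68.4% for SRDX lines 1, 2 and 3 and 67.0% to 68.7% on KO arrays, against 76.3% to 80.9% on WT arrays at 5 DAD. At 50 DAS this share was 62.2% to 68.7% in OX and 63.3% to 66.8% in WT. The 4 leaf mesophyll markers were well above background on all 15 arrays. The Methods call the 3 arrays of a group biological replicates and do not say how plants were pooled or harvested for WT and KO, so the p-values measure the spread between these samples.

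Most of the pathway stood at a lower level in dark-treated WT plants than in WT leaves at 50 DAS. Of the 40 genes, 37 were lower at 5 DAD, 2 were higher and 1 did not pass the limit (limma, Benjamini-Hochberg adjusted p-value under 0.15, as for all calls here). In this comparison 40.2% of the 25663 genes tested were lower and 46.0% were higher, so the members that fell made up 92.5% of the list against a background of 40.2%. The median log2 change of the 40 was -2.24, beside 0.13 over all genes tested. Light, age, growth medium, labelled tissue, slide and scan day all differed between these groups and cannot be told apart. In bulk samples, fewer cells of a type and less RNA per cell cannot be told apart either.

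**Figure D1:**
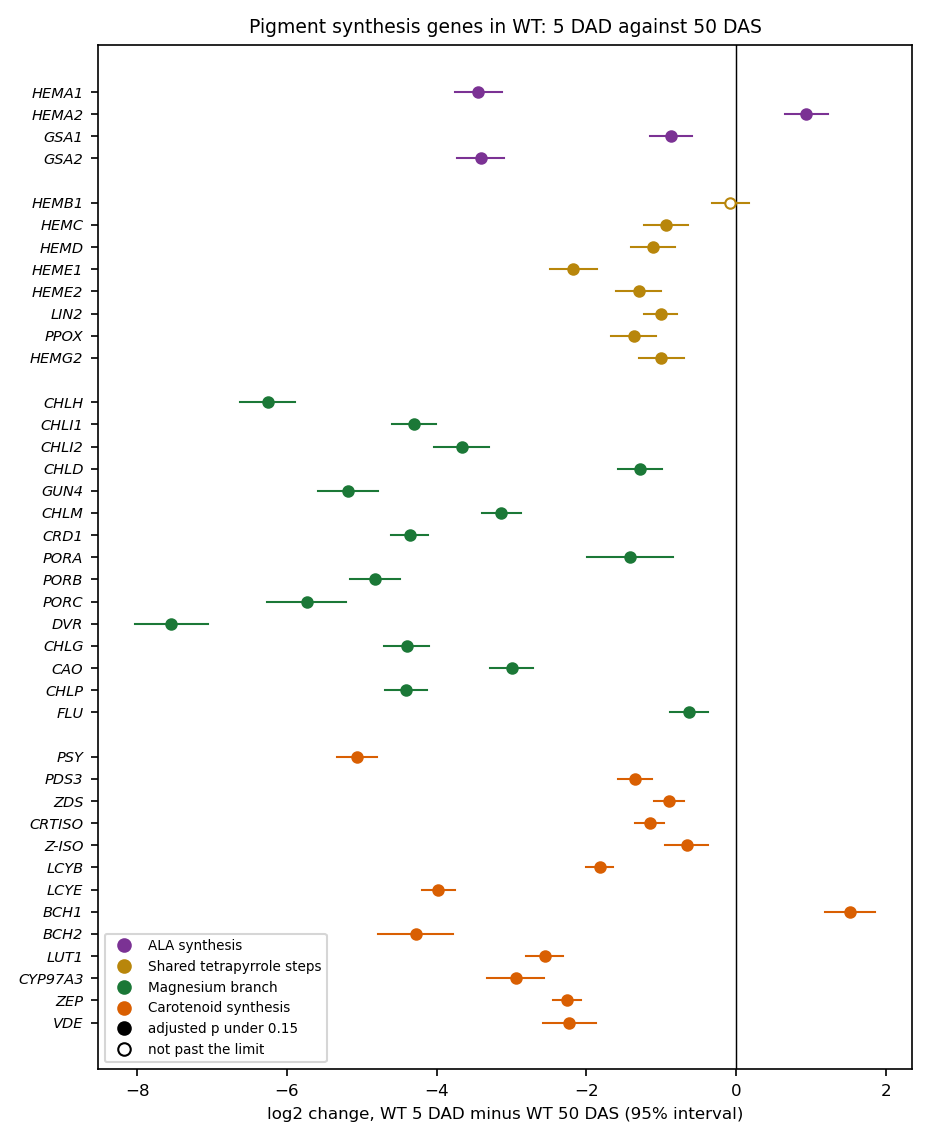
Log2 change of each of the 40 genes in WT, 5 DAD minus 50 DAS, with its 95% interval from the limma fit (3 arrays per group). Colors mark the role of the gene and filled points passed the limit. The 15 genes of the magnesium branch lie between -7.54 and -0.63, whereas *HEMA2* and *BCH1* lie above 0.

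Within this fall the roles differed in size. All 15 genes of the magnesium branch were lower, with a median log2 change of -4.36 and a range of -7.54 to -0.63. Of the 13 carotenoid genes 12 were lower, with a median of -2.23. Of the 8 genes of the shared steps 7 were lower, with a median of -1.06 and a range of -2.17 to -0.08. Of the 4 genes of ALA synthesis 3 were lower. The difference in size between the roles is a description and was not tested.

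The largest decrease was that of *DVR*, with -3.06, -2.96 and -2.80 on the WT arrays at 5 DAD, against 4.71, 4.92 and 4.19 at 50 DAS. The log2 change was -7.54 ± 0.20 (SE), a 187-fold lower signal (adjusted p = 6.37e-07). *CHLH* (AT5G13630), the porphyrin-binding subunit of magnesium chelatase, had 3.17, 2.82 and 2.85 at 5 DAD, against 9.33, 9.32 and 8.97 at 50 DAS, and was 76.4-fold lower (adjusted p = 4.96e-07). Its partner subunits did not move alike: the log2 change was -4.30 for *CHLI1* (AT4G18480), -3.67 for *CHLI2* (AT5G45930) and -1.28 for *CHLD* (AT1G08520). The 95% intervals of these changes were -4.59 to -4.01, -4.03 to -3.30 and -1.58 to -0.98, so that of *CHLD* lay apart from the others. They cover the spread between arrays for the brightest probe only. The dimmer probe gave -2.68 for *CHLI1* and -1.12 for *CHLD*, so the size of this difference depends on the probe. *GUN4* (AT3G59400), which activates the chelatase, had 2.0, 1.83 and 2.19 at 5 DAD, against 7.33, 7.35 and 6.90 at 50 DAS, a 36.4-fold lower signal (adjusted p = 1.06e-06).

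The next steps of the branch fell as well. *CHLM* (AT4G25080) had 4.55, 4.71 and 4.73 on dark WT arrays, against 7.85, 7.90 and 7.65 on leaf WT arrays, and *CRD1* (AT3G56940) had 4.56, 4.70 and 4.78, against 9.09, 9.11 and 8.92. Their log2 changes were -3.13 ± 0.10 and -4.36 ± 0.10 (SE). *CHLG* (AT3G51820), Chl synthase, and *CHLP* (AT1G74470), the reductase that makes its phytyl substrate, changed by -4.40 and -4.41. *CAO* (AT1G44446) fell less, with 4.57, 4.61 and 4.53 at 5 DAD, against 7.71, 7.64 and 7.35 at 50 DAS (log2 change -3.0, adjusted p = 2.24e-06).

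The 3 protochlorophyllide oxidoreductases are known for different light regimes: PORA accumulates in etiolated seedlings, and PORB and PORC act in green tissue. *PORB* (AT4G27440) had 3.59, 3.17 and 3.36 at 5 DAD, against 8.35, 8.17 and 8.07 at 50 DAS, and *PORC* (AT1G03630) had 0.51, 0.28 and 0.61, against 6.39, 6.48 and 5.74. These were decreases of 28.3-fold and 53.3-fold (adjusted p = 7.82e-07 and 1.97e-06). *PORA* (AT5G54190) was below the array median in both groups, with -2.63, -1.98 and -2.21 at 5 DAD, against -1.25, -0.76 and -0.56 at 50 DAS (log2 change -1.42, adjusted p = 0.00166). None of the 3 genes was higher in the dark.

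The repressor gene *FLU* (AT3G14110) showed the smallest change of the branch, with 4.60, 4.68 and 4.83 at 5 DAD, against 5.37, 5.42 and 5.21 at 50 DAS (log2 change -0.63, adjusted p = 0.00148). The dimmer of its 2 probes gave 0.49 in the same comparison, so the direction for *FLU* depends on the probe.

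At the entry of the pathway, the genes of glutamyl-tRNA reductase went apart. *HEMA1* (AT1G58290), the main glutamyl-tRNA reductase gene of green tissue, had 4.33, 4.27 and 4.35 at 5 DAD, against 7.88, 7.89 and 7.50 at 50 DAS, and was 10.9-fold lower (adjusted p = 1.86e-06). *HEMA2* (AT1G09940) had 4.42, 4.46 and 4.12 at 5 DAD, against 3.46, 3.42 and 3.30 at 50 DAS, and was 1.92-fold higher (adjusted p = 0.000443). The dark and the leaf arrays of each gene did not overlap. *GSA2* (AT3G48730) fell by 3.41 on the log2 scale and *GSA1* (AT5G63570) by 0.87. The dimmer probe of *GSA2* gave a log2 change of -1.41. Among the shared steps, *HEMB1* (AT1G69740), ALA dehydratase, did not pass the limit, with 6.59, 6.44 and 6.32 at 5 DAD, against 6.54, 6.59 and 6.45 at 50 DAS (interval of the difference -0.33 to 0.17). The dimmer of its 2 probes gave 2.17, so this gene too depends on the probe. The other 7 changed by -2.17 (*HEME1*, AT3G14930) to -0.94 (*HEMC*, AT5G08280) with their brightest probes. The dimmer probes gave 0.31 for *PPOX* and 0.72 for *LIN2*, against -1.37 and -1.01 with the brightest, whereas that of *HEMC* gave -1.74.

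Of the carotenoid genes, *PSY* (AT5G17230) fell most with the brightest probes. It had 1.79, 1.69 and 1.74 at 5 DAD, against 6.92, 6.87 and 6.61 at 50 DAS, a 33.5-fold decrease (adjusted p = 3.64e-07, limma). The dimmer probe of *PSY* gave a log2 change of -3.23, beside -5.06 with the brightest. *BCH2* changed by -4.28, so the rank of *PSY* depends on the probe. The 4 genes from phytoene to lycopene fell less, by 0.66 (*Z-ISO*, AT1G10830) to 1.35 (*PDS3*, AT4G14210) on the log2 scale. The dimmer probe of *PDS3* gave a log2 change of 0.20. At the branch point *LCYE* (AT5G57030) had 1.13, 1.14 and 1.20 at 5 DAD, against 5.11, 5.26 and 5.03 at 50 DAS, a log2 change of -3.98 with a 95% interval of -4.20 to -3.75, whereas *LCYB* (AT3G10230) changed by -1.82 with an interval of -2.0 to -1.64. *VDE* (AT1G08550) had 2.66, 2.74 and 2.57 at 5 DAD, against 5.09, 4.97 and 4.60 at 50 DAS (log2 change -2.23, adjusted p = 1.88e-05). The dimmer probe of *VDE* gave -0.15.

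The beta-carotene hydroxylase genes went in opposite directions. *BCH1* (AT4G25700) had 5.51, 5.55 and 5.67 at 5 DAD, against 4.22, 4.16 and 3.78 at 50 DAS, and was 2.88-fold higher (adjusted p = 8.39e-05). *BCH2* (AT5G52570) had 0.84, 0.71 and 0.61 at 5 DAD, against 5.23, 5.23 and 4.54 at 50 DAS, and was 19.4-fold lower (adjusted p = 5.16e-06). All 3 probes of *BCH1* gave a higher signal at 5 DAD, with log2 changes of 1.32 to 2.35.

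**Figure D2:**
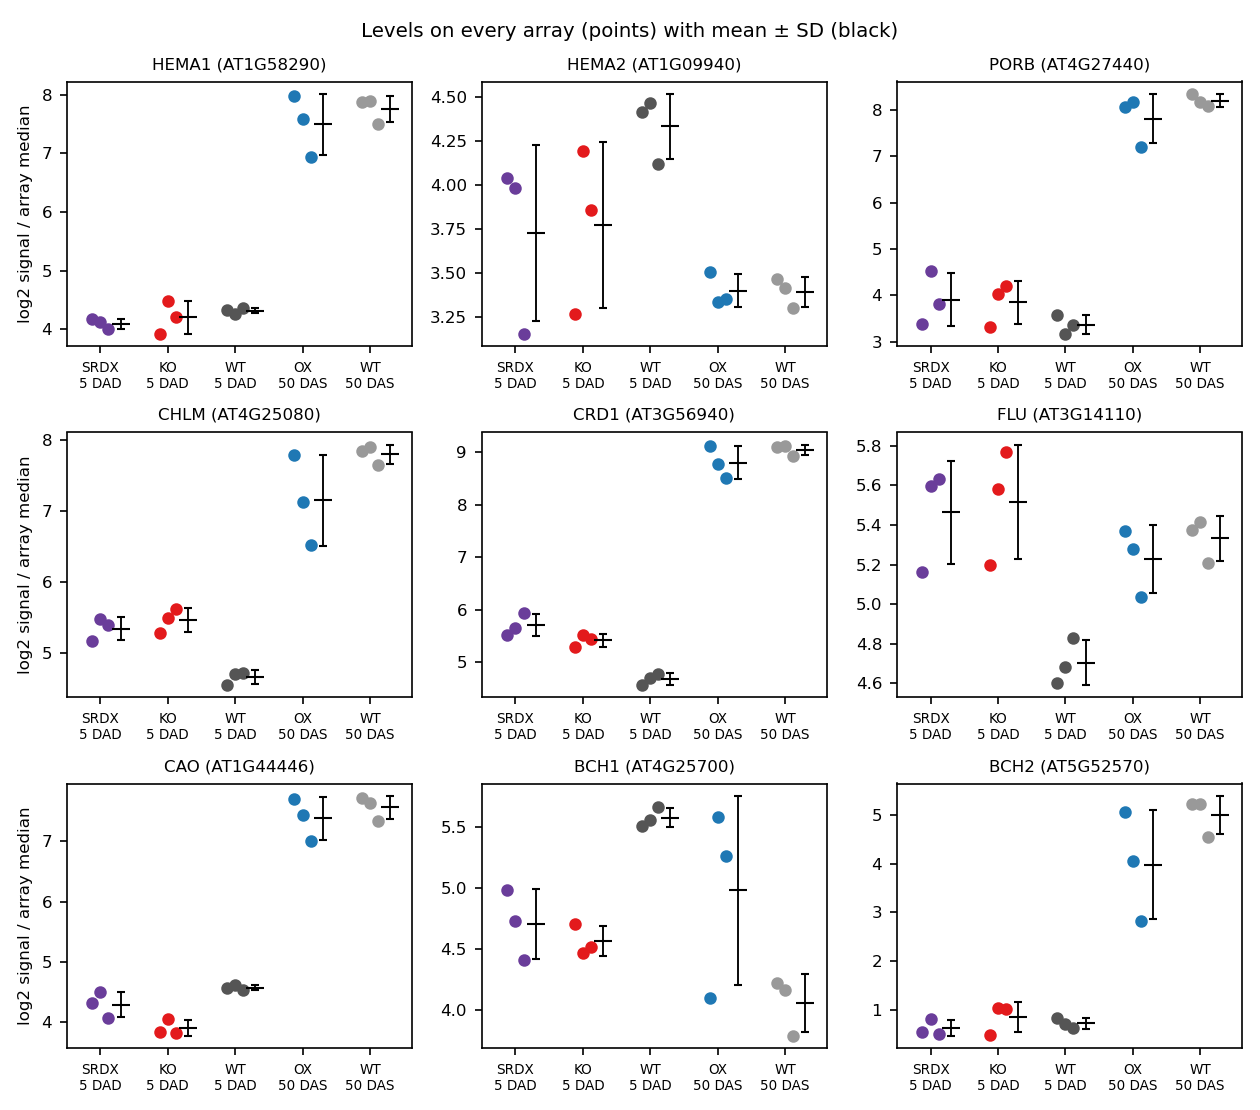
Log2 signal relative to the array median of 9 genes on all 15 arrays (points), with mean ± SD of 3 arrays in black, for SRDX, KO and WT at 5 DAD and OX and WT at 50 DAS. *CHLM*, *CRD1* and *FLU* are lower on all 3 dark WT arrays than on any SRDX or KO array, *BCH1* is higher there, and OX line 1 (left point) lies within the range of WT at 50 DAS for *BCH1* and *BCH2*. Vertical axes differ between panels and do not start at 0.

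The lists of neighbouring genes are read against the same 40.2% of all genes lower and 46.0% higher. Of 10 genes of plastid isoprenoid supply 9 were lower and 1 was higher at 5 DAD, with a median log2 change of -1.55. In the heme, bilin and siroheme branch 5 of 9 were lower (55.6%) and 3 were higher (33.3%). The ferrochelatase genes were split, with a log2 change of 2.38 for *FC1* (AT5G26030) and -3.19 for *FC2* (AT2G30390). Of 7 further tetrapyrrole genes 3 were lower and 3 were higher (42.9% each). Of 7 genes of carotenoid cleavage and helper proteins 4 were lower (57.1%) and 3 were higher (42.9%). The shares of these last 3 lists were near the background. The leaf mesophyll markers were lower too, 4 of 4, with a summed linear signal of 924 to 1010 array medians at 5 DAD, against 6820 to 7160 at 50 DAS. Of 13 root markers 10 were well above background on every WT array at 5 DAD, against 1 of 13 at 50 DAS, with summed signals of 4.17 to 5.43 array medians at 5 DAD and 1.53 to 2.21 at 50 DAS, and *CASP1* and *IRT1* were not well above background on any of these arrays. Of 4 flower markers 3 were well above background on every WT array at 5 DAD, against 0 of 4 at 50 DAS, with summed signals of 24.1 to 32.9 at 5 DAD and 0.48 to 1.15 at 50 DAS. These sums were mostly the signal of *PI*, with a mean log2 level of 4.76 at 5 DAD and a log2 change of 7.26. *SEP3* and *AG* changed by 0.80 and 0.42, and *AP3* was well above background on only 1 WT array at 5 DAD. The part of the markers in the values of the pigment genes was not tested.

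Among dark-treated plants the question was whether loss of ANAC046 function, by KO or by the SRDX repressor, went with other levels of the synthesis genes. In SRDX plants 6 of the 40 genes were higher than in WT and 4 were lower, which is 15% and 10% of the list. Over all 25184 genes tested 11.6% were higher and 8.79% were lower. In KO plants 5 genes were higher and 5 were lower, 12.5% of the list each way, beside 18.2% and 14.2% of all genes tested. With Storey q-values at the same limit 11 genes were higher and 9 were lower in SRDX, beside 18.7% and 17.0% of all genes, and 11 were higher and 8 were lower in KO, beside 28.7% and 24.6%. The shares at the adjusted p-value lay near or under the background, which is no result about the list as a whole. Its median log2 change was 0.01 in SRDX and 0.06 in KO, beside -0.04 and 0.03 over all genes. When arrays were scaled to their 75th percentile, 41.1% of the KO calls over all genes were higher, whereas quantile normalization gave 56.3%. SRDX and KO were set against the same 3 WT arrays, so their values are not independent of each other.

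By role, in the magnesium branch 6 of 15 genes were higher (40%) and 0 were lower in SRDX, with a median log2 change of 0.46, and 4 were higher (26.7%) and 1 was lower (6.67%) in KO, with a median of 0.37. The background in these comparisons was 11.6% higher and 8.79% lower in SRDX and 18.2% and 14.2% in KO. Of the 8 shared genes 0 were higher and 2 were lower (25%) in SRDX, and 0 were higher and 1 was lower (12.5%) in KO. Of the 13 carotenoid genes 0 were higher and 2 were lower (15.4%) in SRDX, and 1 was higher (7.69%) and 3 were lower (23.1%) in KO. None of the 4 ALA genes was called in either. The roles hold few genes, and differences between them were not tested. The log2 changes ran from -0.46 to 1.03 in SRDX and -0.67 to 0.81 in KO in the magnesium branch, from -0.61 to 0.21 and -0.67 to 0.24 in the shared steps, from -0.87 to 0.40 and -1.02 to 0.35 among the carotenoid genes, and from -0.64 to 0.02 and -0.56 to 0.04 among the ALA genes.

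**Figure D3:**
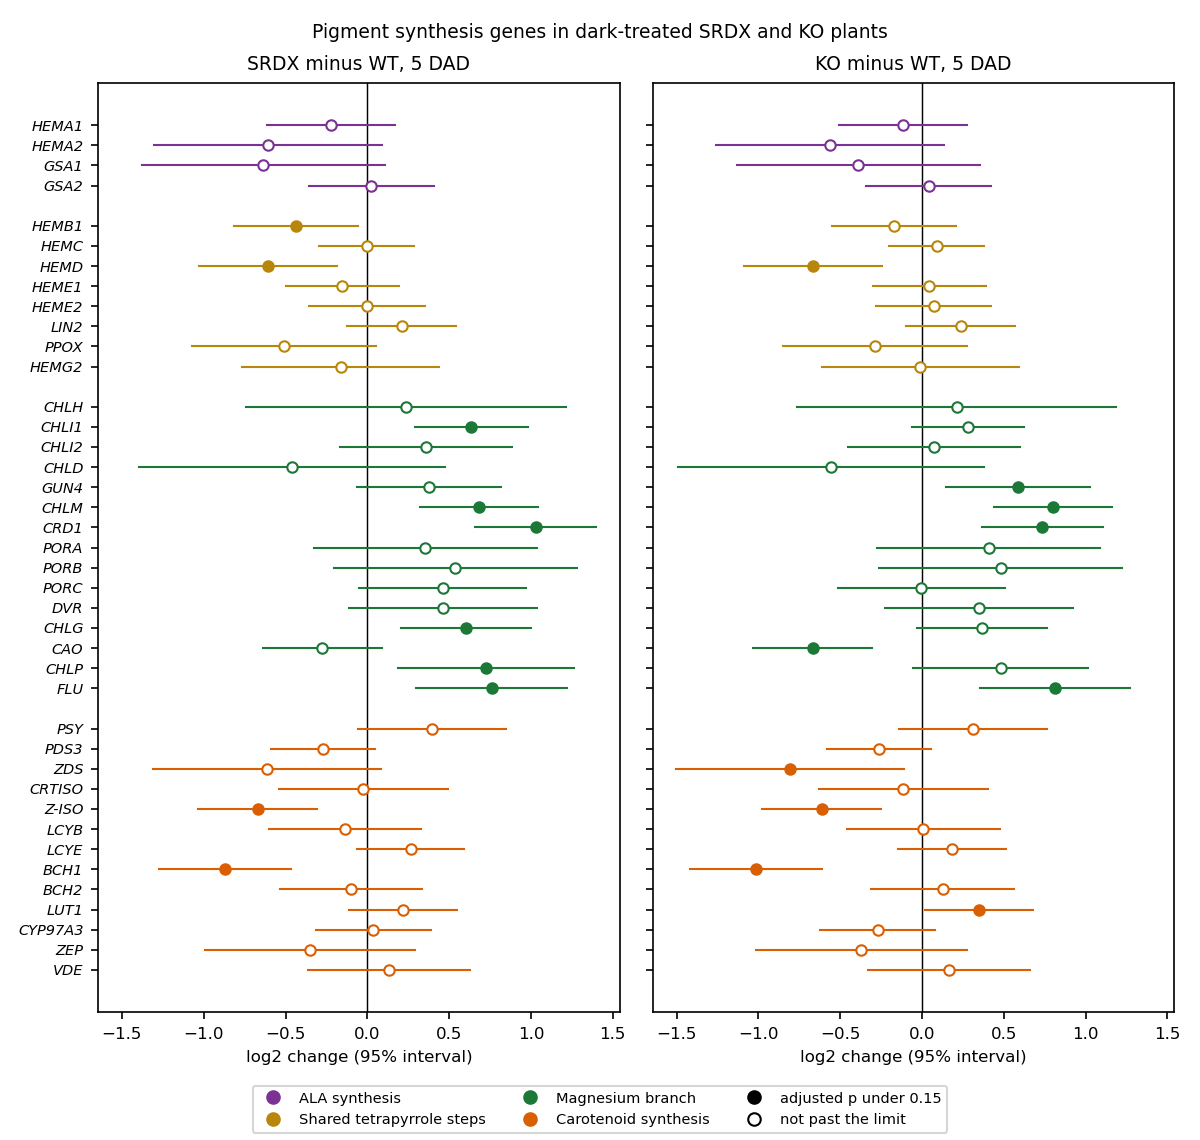
Log2 change of each of the 40 genes at 5 DAD for SRDX minus WT (left) and KO minus WT (right), with the 95% interval from 1 limma fit of 9 arrays. Filled points passed the limit. *CHLM*, *CRD1* and *FLU* passed it above 0 and *HEMD*, *Z-ISO* and *BCH1* below 0 in both panels, which share the 3 WT arrays.

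In the Chl branch 3 genes rose in both lines. *CRD1* had 5.53, 5.66 and 5.94 on SRDX arrays and 5.28, 5.51 and 5.45 on KO arrays, against 4.56, 4.70 and 4.78 on WT arrays. It was 2.04-fold higher in SRDX (adjusted p = 0.0188) and 1.67-fold higher in KO (adjusted p = 0.0279), and no array overlapped with WT. *CHLM* had 5.17, 5.48 and 5.39 in SRDX and 5.28, 5.50 and 5.62 in KO, against 4.55, 4.71 and 4.73 in WT. Its log2 change was 0.68 ± 0.16 (SE, adjusted p = 0.0425) in SRDX and 0.80 ± 0.16 (adjusted p = 0.0218) in KO. *FLU*, the gene of the negative regulator, had 5.16, 5.60 and 5.63 in SRDX and 5.20, 5.58 and 5.77 in KO, against 4.60, 4.68 and 4.83 in WT, and was 1.69-fold higher in SRDX and 1.76-fold higher in KO (adjusted p = 0.0594 and 0.0378). The dimmer *FLU* probe gave 0.54 in SRDX and 0.14 in KO.

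Other genes of the branch passed the limit in 1 of the lines. *GUN4* had 2.65, 2.11 and 2.39 in SRDX and 2.53, 2.43 and 2.82 in KO, against 2.0, 1.83 and 2.19 in WT, with an adjusted p-value of 0.265 for SRDX and 0.0766 for KO. *CHLI1* had 4.15, 4.13 and 4.16 in SRDX, against 3.36, 3.51 and 3.67 in WT, and was 1.55-fold higher (adjusted p = 0.0448). *CHLP* had 5.50, 6.30 and 5.92 in SRDX, against 5.35, 4.98 and 5.21 in WT (log2 change 0.73, adjusted p = 0.0987), and *CHLG* differed by 0.60 (adjusted p = 0.0743). The corresponding KO values of *CHLI1*, *CHLP* and *CHLG* were 0.28, 0.48 and 0.37, none past the limit. That a gene passed in only 1 line does not show that the lines differ: in the direct comparison of SRDX with KO none of these genes passed.

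*CAO* was the only gene of the branch called lower, in KO. It had 4.32, 4.50 and 4.07 in SRDX and 3.83, 4.06 and 3.82 in KO, against 4.57, 4.61 and 4.53 in WT. The SRDX change of -0.28 ± 0.16 on the log2 scale missed the limit (SE, adjusted p = 0.317), and the KO change of -0.67 ± 0.16 passed it (adjusted p = 0.0345). All KO and all SRDX arrays lay below the WT arrays.

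The chelatase subunit genes *CHLH* and *CHLD* varied widely among the arrays of the loss lines. *CHLH* had 2.41, 4.19 and 2.97 in SRDX and 2.84, 3.71 and 2.94 in KO, against 3.17, 2.82 and 2.85 in WT, and the groups overlapped. *CHLD* had 4.18, 5.70 and 4.51 in SRDX and 4.16, 5.28 and 4.65 in KO, against 5.44, 5.27 and 5.06 in WT. In both genes SRDX line 2 was the highest SRDX array and KO replicate 2 the highest KO array. The 95% interval for *CHLH* was -0.74 to 1.22 in SRDX and -0.77 to 1.19 in KO, so neither direction could be told apart from 0. Of all 40 genes 23 had their highest SRDX value in line 2, 57.5%, beside 38.2% of all genes well above background in SRDX. In KO, 30 of the 39 genes well above background on its 3 arrays (76.9%) had their lowest value in replicate 1, beside 47.9% of all such genes.

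The oxidoreductase genes did not pass the limit in either line. *PORA* had -2.50, -1.36 and -1.90 in SRDX and -2.10, -1.84 and -1.66 in KO, against -2.63, -1.98 and -2.21 in WT. *PORB* had 3.40, 4.53 and 3.81 in SRDX and 3.33, 4.04 and 4.20 in KO, against 3.59, 3.17 and 3.36 in WT, with intervals of -0.20 to 1.28 and -0.26 to 1.22. *PORC* had 1.31, 0.76 and 0.72 in SRDX and 0.21, 0.39 and 0.79 in KO, against 0.51, 0.28 and 0.61 in WT. The SRDX arrays of *PORC* lay above all WT arrays and its KO arrays overlapped with them.

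Of the ALA genes, *HEMA1* had 4.17, 4.11 and 4.0 in SRDX and 3.91, 4.48 and 4.21 in KO, against 4.33, 4.27 and 4.35 in WT. *HEMA2* had 4.04, 3.98 and 3.15 in SRDX and 3.27, 4.19 and 3.86 in KO, against 4.42, 4.46 and 4.12 in WT. Neither passed the limit, with intervals of -1.30 to 0.09 in SRDX and -1.26 to 0.13 in KO for *HEMA2*. Among the shared steps *HEMD* (AT2G26540), uroporphyrinogen III synthase, had 2.98, 2.38 and 2.53 in SRDX and 2.54, 2.45 and 2.71 in KO, against 3.15, 3.25 and 3.30 in WT, and was 1.52-fold lower in SRDX and 1.59-fold lower in KO (adjusted p = 0.0843 and 0.0499). *HEMB1* had 6.09, 6.19 and 5.76 in SRDX, against 6.59, 6.44 and 6.32 in WT, and passed the limit narrowly (log2 change -0.43, adjusted p = 0.146), and in KO it differed by -0.17.

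Among the carotenoid genes *BCH1* fell most. It had 4.98, 4.73 and 4.41 in SRDX and 4.70, 4.47 and 4.52 in KO, against 5.51, 5.55 and 5.67 in WT, and was 1.83-fold lower in SRDX (adjusted p = 0.0306) and 2.02-fold lower in KO (adjusted p = 0.017). Its 3 probes gave log2 changes of -0.95 to -0.82 in SRDX and -1.36 to -0.94 in KO. *BCH2* differed from WT by -0.10 in SRDX and 0.13 in KO, neither past the limit. *Z-ISO* had 3.77, 3.62 and 3.31 in SRDX and 3.64, 3.58 and 3.67 in KO, against 4.14, 4.30 and 4.29 in WT (log2 change -0.67 and -0.61, adjusted p = 0.0449 and 0.0423). *ZDS* (AT3G04870) had 3.36, 3.90 and 2.78 in SRDX and 2.68, 3.54 and 3.25 in KO, against 4.01, 4.0 and 3.88 in WT, and passed the limit in KO (adjusted p = 0.109) but not in SRDX (adjusted p = 0.248). *LUT1* (AT3G53130), which hydroxylates the epsilon ring on the way to lutein, was 1.28-fold higher in KO, with 2.12, 2.36 and 2.38, against 1.98, 1.93 and 1.90 in WT (adjusted p = 0.133).

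*PSY*, *LCYE* and *VDE* were not called. *PSY* had 2.35, 2.02 and 2.04 in SRDX and 1.71, 2.04 and 2.40 in KO, against 1.79, 1.69 and 1.74 in WT. *LCYE* had 1.44, 1.24 and 1.59 in SRDX and 1.38, 1.28 and 1.36 in KO, against 1.13, 1.14 and 1.20 in WT, and all arrays of both lines lay above the WT arrays, by a log2 change of 0.27 and 0.18 (adjusted p = 0.287 and 0.401). *VDE* had 2.67, 3.08 and 2.62 in SRDX and 2.41, 3.13 and 2.92 in KO, against 2.66, 2.74 and 2.57 in WT.

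Some of these calls turned on single arrays. When each of the 9 dark arrays was left out in turn, *CHLM*, *CRD1*, *CAO*, *FLU* and *BCH1* passed the limit in KO in all 9 fits, and *CRD1* and *BCH1* did so in SRDX. *HEMB1* passed in 2 of 9 fits in SRDX, and *ZDS* and *LUT1* in 4 of 9 in KO. In SRDX *FLU*, *HEMD* and *CHLP* passed in 5 of 9 fits, *CHLG* in 6, and *CHLM*, *CHLI1* and *Z-ISO* in 7. *FLU* was lost there without any 1 of the WT arrays or without SRDX line 3. In KO *GUN4* passed in 6 of 9 fits, *HEMD* in 7 and *Z-ISO* in 8. *ZDS* and *LUT1* in KO and *HEMB1* and *CHLP* in SRDX also missed the limit with the slide as a random block. *LUT1* in KO was further lost under 75th percentile scaling, with the mean of all probes and in 1 fit of 15 arrays. In SRDX *HEMB1* was lost under 75th percentile scaling, with no filter on dim probes and with the replicate block, *HEMD* in 1 fit of 15 arrays, and *CHLG* in the authors' table. In SRDX the count of higher genes was 1 without WT replicate 1 or WT replicate 2 and 3 without SRDX line 3, and that of lower genes was 2 without WT replicate 1, 1 without WT replicate 2 or 3, 11 without SRDX line 2 and 2 without SRDX line 3. In KO the count of higher genes was 3 without WT replicate 1, WT replicate 2 or KO replicate 3, and that of lower genes was 2 without WT replicate 2 and 3 without WT replicate 3.

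The magnesium branch calls moved beside marker genes. The 4 leaf mesophyll markers had a summed linear signal of 1140 to 1540 array medians on SRDX arrays and 1170 to 1610 on KO arrays, against 924 to 1010 on WT arrays, and 2 of the 4 were higher in SRDX and 3 in KO. Of the 13 root markers 5 were well above background on every SRDX array and 4 on every KO array, against 10 in WT, with summed signals of 2.61 to 3.12 in SRDX, 3.42 to 5.21 in KO and 4.17 to 5.43 in WT. The share of all spots well above background was also lower on KO arrays and SRDX line 3 than in WT. By level, of 10 root markers tested 1 was higher and 1 lower in SRDX, and 1 higher and 4 lower in KO. The higher one was *CASP2* in both, by 0.93 in SRDX and 1.18 in KO. Of the 4 flower markers 1 was well above background on every SRDX array and 1 on every KO array, against 3 in WT, with summed signals of 6.42 to 14.7 in SRDX, 6.85 to 7.04 in KO and 24.1 to 32.9 in WT. Here too the sums were mostly *PI*, with log2 changes of -1.74 in SRDX and -2.02 in KO. *SEP3* changed by -0.53 and -1.32, and *AG* by -0.45 and -1.07. The part of the markers in the values of *CHLM*, *CRD1*, *FLU* and the other genes was not tested.

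Probes of the same gene did not always give the same value in the dark. Of the 40 genes 17 had several probes that were all well above background on the 15 arrays. In KO the dimmest probe of a gene gave a lower log2 change than its brightest in 16 of the 17 (94.1%), with a median difference of -0.64, beside 69.3% and -0.11 over 4742 loci with several such probes. For 7 of the 17 the sign was opposite. In SRDX this held for 15 of 17 (88.2%, beside 58.2% of the loci), with the opposite sign in 2. *CHLP* gave 0.48, 0.08 and -0.41 in KO with its 3 probes, from the brightest to the dimmest, and *VDE* gave 0.16 and -0.75. *Z-ISO* hardly depended on the probe, with -0.61 and -0.62 in KO. *BCH1* kept its direction, with -1.02, -0.94 and -1.36 in KO from the brightest to the dimmest probe. With the mean of all probes in place of the brightest, 4 of the 40 genes were higher and 8 lower in KO, beside 17.3% and 15.1% of all genes. In WT at 5 DAD against 50 DAS, the change of the dimmest minus that of the brightest probe had a median of 1.27. Over all such loci this median was 0.29, and for 4 of the 17 genes the sign was opposite. The median change of the 40 genes in WT was -2.21 with the mean of all probes.

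The neighbouring lists are short, and their counts are set beside 11.6% higher and 8.79% lower over all genes in SRDX and 18.2% and 14.2% in KO. In the heme, bilin and siroheme branch 1 of 9 genes was higher and 2 were lower (11.1% and 22.2%), in SRDX and in KO alike. The lower ones were *FC1*, with a log2 change of -0.85 in SRDX and -0.84 in KO, and *HO1* (AT2G26670), which encodes a heme oxygenase of phytochrome chromophore synthesis, with -0.77 and -0.67. Of the 7 further tetrapyrrole genes 3 were higher (42.9%) and 1 was lower (14.3%) in SRDX, and 1 was higher and 1 was lower in KO (14.3% each). The light-harvesting-like gene *LIL3:2* (AT5G47110) was higher in both, by 0.98 in SRDX and 0.64 in KO. Of the 10 isoprenoid supply genes 0 were higher and 1 was lower in SRDX, and 1 was higher and 1 was lower in KO. Of the 7 cleavage and helper genes 1 was higher (14.3%) and 2 were lower (28.6%) in SRDX, and 1 was higher and 1 was lower in KO (14.3% each). *CCD4* (AT4G19170), which encodes a carotenoid cleavage dioxygenase, was higher by 0.58 in SRDX and 1.04 in KO.

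The direct comparison of SRDX with KO asked whether the repressor lines and the insertion line differed. None of the 40 genes passed the limit in either direction (limma), beside 0.143% of all genes tested that were higher in SRDX and 0.131% that were lower. Without adjustment 2 of the 40 (5%) were higher and 0 lower in SRDX (p-value under 0.05), beside 4.78% and 7.18% of all genes, so the higher share was at the background. With Storey q-values 0 passed, beside 0.457% and 0.584% of all genes. These 2 were *CHLI1*, with 4.15, 4.13 and 4.16 in SRDX, against 3.64, 3.80 and 3.95 in KO, and *CAO*, with 4.32, 4.50 and 4.07 in SRDX, against 3.83, 4.06 and 3.82 in KO. Neither pair of groups overlapped, and the 95% intervals of the difference were 0.01 to 0.70 and 0.03 to 0.76. *CAO* passed the limit when SRDX line 3, the one on the slide of the KO arrays, was left out (adjusted p = 0.127, limma). For *CHLH*, which varied most among the SRDX arrays, the interval was -0.95 to 1.0. Over the 40 genes the differences of the brightest probes ran from -0.26 to 0.47 with a median of -0.01. With the mean of all probes this median was 0.12. In the 17 genes with several probes, the difference of the dimmest minus that of the brightest had a median of 0.45. Over all such loci it was 0.09, and for 6 of the 17 genes the sign was opposite. *CRD1* differed by 0.29, *CHLM* by -0.12 and *BCH1* by 0.14, with intervals of -0.08 to 0.66, -0.48 to 0.24 and -0.26 to 0.55.

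In leaves at 50 DAS the question was whether overexpression of ANAC046 went with other levels of the synthesis genes. None of the 40 genes was called in OX against WT in either direction (limma), beside 0.093% of all 20427 genes tested that were higher and 0.0049% that were lower. *ANAC046* itself was not called either, with a log2 change of 6.29 ± 1.73 (SE, adjusted p = 0.194, limma). The lack of calls with these 3 lines therefore does not show a lack of change. Without adjustment 0 of the 40 genes were higher and 0 lower (p-value under 0.05), beside 9.34% and 13.7% of all genes. With Storey q-values at the same limit 4 of the 40 were higher and 6 were lower, beside 24.7% and 34.3% of all genes. With all 15 arrays in 1 fit 1 was higher and 2 were lower, beside 11.8% and 16.0%. The median log2 change was -0.12, beside -0.07 over all genes, and 29 of the 40 changes were negative. Every OX line exceeded every WT array for 2 genes, *PPOX* (AT4G01690), which encodes a protoporphyrinogen oxidase, and *CHLH*, which is 5% of the list beside 12.9% of all genes. They lay below for 1 gene, *ZEP* (AT5G67030), which is 2.5% beside 21.1%.

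**Figure D4:**
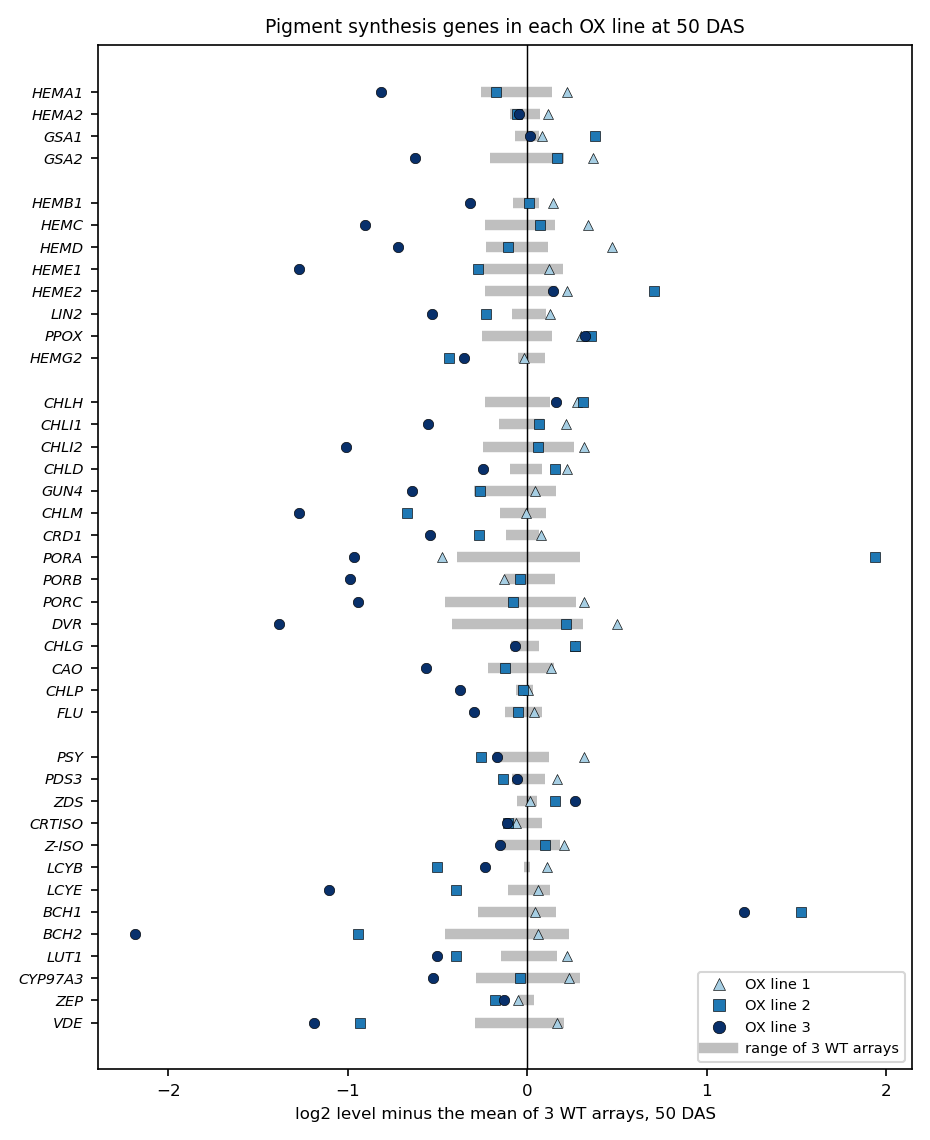
Log2 level of each of the 40 genes in OX lines 1, 2 and 3 at 50 DAS minus the mean of 3 WT arrays, with the range of those WT arrays as a gray bar. Line 3 lies below the WT mean for 34 genes, line 2 for 24 and line 1 for 6, and *BCH1* lies above the WT range in lines 2 and 3.

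The 3 OX lines did not agree among themselves. The median of the 40 genes relative to the WT mean was 0.14 in line 1, -0.05 in line 2 and -0.51 in line 3. Line 3 lay below the WT mean for 34 genes (85%), beside 52.6% of all genes tested. Line 1 was the highest of the 3 lines for 32 genes (80%, beside 41% of all genes well above background in OX), and line 3 was the lowest for 31 (77.5%, beside 32%). Line 1 was also the line with the lowest *ANAC046* signal. WT replicate 3 was the lowest WT array for 33 of the genes (82.5%, beside 36.5%). The part of transgene level, line and array in this order was not tested.

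Among the carotenoid genes *BCH1* and *BCH2* differed most between the lines. *BCH1* had 4.10, 5.58 and 5.26 in OX lines 1, 2 and 3, against 4.22, 4.16 and 3.78 in WT, so that lines 2 and 3 were above all WT arrays and line 1 was within their range. *BCH2* had 5.06, 4.06 and 2.82 in OX, against 5.23, 5.23 and 4.54 in WT, with lines 2 and 3 below all WT arrays. The changes over the 3 lines were 0.93 ± 0.40 for *BCH1* and -1.02 ± 0.57 for *BCH2* (SE, adjusted p = 0.226 and 0.29, limma). *VDE* had 5.05, 3.96 and 3.70 in OX, against 5.09, 4.97 and 4.60 in WT, and *LCYE* had 5.19, 4.74 and 4.03, against 5.11, 5.26 and 5.03. In both genes lines 2 and 3 were below all WT arrays. *PSY* had 7.12, 6.54 and 6.64 in OX, against 6.92, 6.87 and 6.61 in WT, and the groups overlapped.

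The Chl genes showed the same order of lines in part. *CHLM* had 7.79, 7.13 and 6.52 in OX, against 7.85, 7.90 and 7.65 in WT, and *CRD1* had 9.12, 8.77 and 8.50, against 9.09, 9.11 and 8.92. Lines 2 and 3 were below all WT arrays in each. *CHLH* had 9.48, 9.52 and 9.37 in OX, against 9.33, 9.32 and 8.97 in WT, a log2 change of 0.25 with an interval of -0.13 to 0.63. *GUN4* had 7.24, 6.93 and 6.55 in OX, against 7.33, 7.35 and 6.90 in WT. *CAO* had 7.70, 7.44 and 7.01 in OX, against 7.71, 7.64 and 7.35 in WT, and *FLU* had 5.37, 5.28 and 5.04, against 5.37, 5.42 and 5.21. In *CAO* and *FLU* line 3 alone was below the WT arrays.

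*PORA* was the most variable gene in OX, with -1.33, 1.08 and -1.82 in lines 1, 2 and 3, against -1.25, -0.76 and -0.56 in WT, so that line 2 was above and lines 1 and 3 were below all WT arrays. *PORB* had 8.07, 8.16 and 7.21 in OX, against 8.35, 8.17 and 8.07 in WT, and *PORC* had 6.52, 6.12 and 5.26, against 6.39, 6.48 and 5.74. *HEMA1* had 7.98, 7.58 and 6.94 in OX, against 7.88, 7.89 and 7.50 in WT, and *HEMA2* had 3.51, 3.34 and 3.35, against 3.46, 3.42 and 3.30. The intervals of the OX change were -0.97 to 0.46 for *HEMA1* and -0.31 to 0.32 for *HEMA2*.

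Without OX line 1, 1 of the 40 genes was higher and 11 were lower, beside 25.9% of 21224 genes tested that were higher and 31.2% that were lower. The 27.5% of the list that fell was thus near the background. *BCH1* was the gene that rose, with a log2 change of 1.37 (adjusted p = 0.00779, limma). The largest decreases were those of *BCH2*, with -1.56 (adjusted p = 0.0443), *VDE*, with -1.06 (adjusted p = 0.0153), and *CHLM*, with -0.97 (adjusted p = 0.0250). The others that fell were *HEMG2*, *LUT1*, *LCYE*, *CRD1*, *LCYB*, *LIN2*, *HEME1* and *GUN4*. Without another OX line or a WT array no gene was called. The fit without line 1 is thus 1 of 6, given in detail because it alone held calls. With all 3 lines 0.093% of all genes were called higher and 0.0049% lower. Its p-values follow from a choice made on these same data and are no separate support for a change in these genes. None of the neighbouring genes was called in OX with all 3 lines, among 9 of the heme branch, 7 further tetrapyrrole genes, 10 of isoprenoid supply and the 6 tested of 7 cleavage and helper genes.

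OX and the loss lines can be set side by side, since they share no arrays. A negative change in OX with a positive one in KO was found for 19 of the 40 genes (47.5%, beside 38.2% of all genes tested in both), and with a positive one in SRDX for 17 (42.5%, beside 36.6%). The reverse, a positive change in OX with a negative one, was found for 7 genes in KO (17.5%, beside 24.8%) and 8 in SRDX (20%, beside 29.9%), and the sign was the same for 14 in KO (35%, beside 37%) and 15 in SRDX (37.5%, beside 33.6%). These shares are a description and were not tested. *CHLM*, *CRD1* and *FLU* were among the genes negative in OX and positive in both loss lines. Their OX changes of -0.65, -0.24 and -0.10 did not pass the limit. *BCH1* had the opposite pattern, with 0.93 in OX, -0.87 in SRDX and -1.02 in KO, of which the SRDX and KO values passed.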

How the data were processed

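Leaf arrays (6) and dark arrays (9) were Agilent one-color arrays with 43803 spots. The authors deposited scanner output with spot intensity, made with Feature Extraction (version 11.5.1.1 in the file headers, 9.1.3.1 in the submitters' processing notes). They also deposited a normalized table, read here as natural log values from its slope against the scanner signals and used only as an alternative. Processed signals were divided by the median of unflagged spots, flagged spots were left out, repeated spots were averaged, and the arrays were quantile normalized and put on the log2 scale. The brightest probe stood for a locus, and a gene was tested if all arrays of some group in the fit had it well above background. Fits of 6 leaf, 9 dark and 6 WT arrays used limma 3.58.1 in R 4.3.3, with a Benjamini-Hochberg limit of 0.15, and were tested on simulated data. Of 43603 probes 34348 had a locus (78.8%), and names come from the TAIR10.1 table without coordinates. The number of arrays limits the precision.

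The members, the neighbouring lists and the tests were chosen with earlier results of these data known. Values on every array are given for 14 genes picked for their role and for up to 5 called genes with the largest change in each direction whose groups did not overlap. Other genes given by array, and *PPOX* and *ZEP*, were chosen after their values were seen. Alternatives were 75th percentile scaling, quantile normalization within each experiment, normexp with an offset of 50 (on median signals), the authors' table, other filters, the mean of all probes, Storey q-values, a limit of 0.05, 1 fit of 15 arrays, the slide or the replicate number as a block, and leaving out each array. Promoter sequences were not analysed here.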

Additional observations from a re-analysis of the deposited data

How the results depend on the processing

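Of 293 counts and medians recomputed under the alternatives 262 stayed close, a count within 1.5 times the reported one and a median within 1 SD between replicates. With Storey q-values 4 genes were higher and 6 lower in OX, 11 and 8 in KO, and 11 and 9 in SRDX. With 1 fit of 15 arrays 1 was higher and 2 were lower in OX. At a limit of 0.05, 3 were higher in KO, and 3 were higher and 2 lower in SRDX. With the mean of all probes 8 were lower in KO. The WT median was -2.16 under 75th percentile scaling, which moved the median of all genes to 0.28 from 0.13, and -2.05 in the authors' table. Leaving out 1 array gave 0 to 1 higher and 0 to 11 lower genes in OX, 3 to 7 and 2 to 6 in KO, 1 to 9 and 1 to 11 in SRDX, 0 to 1 higher in SRDX against KO, and a WT median of -2.33 to -2.21. Causes were not tested.

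Of 1382 values of single genes 1274 kept their direction and their side of the limit, 60 no longer passed it, 24 newly passed it and 24 changed sign, none of the last from a change that passed. In OX, leaving out 1 array gave -0.49 to 0.024 for *HEMA1*, -0.049 to 0.040 for *HEMA2*, -0.72 to 0.73 for *PORA*, -0.51 to 0.12 for *PORC*, -0.34 to 0.00492 for *CAO* and -0.21 to 0.076 for *PSY*. In KO it gave -0.26 to 0.029 for *HEMA1*, -0.062 to 0.37 for *CHLH* and -0.17 to 0.12 for *PORC*, and in SRDX -0.26 to 0.63 for *CHLH* and -0.015 to 0.22 for *VDE*. The mean of all probes gave -0.00339 for *PORA* in OX, and -0.00535 for *PSY* and -0.29 for *VDE* in KO. Normexp gave 0.11 for *PSY* in OX, 75th percentile scaling -0.18 for *PORA* in KO, and the slide block 0.016 for *PORC* in KO.

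In no pair of groups did every array correlate best with the array of its own number, and the main fits did not pair samples. Correlations of same-numbered arrays, taken as deviations from the group mean, ran from -0.32 to 0.80. The highest was that of SRDX line 2 with KO replicate 2, which thus shared much of their deviation. The SRDX and KO arrays numbered 1 and 3 gave 0.38 and -0.06. With the replicate number as a block 0 genes were higher and 0 lower in OX, 5 and 5 in KO, 6 and 3 in SRDX, 0 and 0 in SRDX against KO, and 2 and 37 in WT. With the slide as a random block 4 and 4 were called in KO and 5 and 3 in SRDX. On the slide that holds SRDX line 3 and the 3 KO arrays, the median difference was -0.11 and 0 of the 40 genes passed, but SRDX is 1 array there and is assumed to vary like KO, so this count says little.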
